A study of Homo sapiens with 40 samples.

Results

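MYC, CCND1, HMGA1, HMGA2, CD44, CTNNB1 and CDK6 are growth-promoting genes whose mRNAs have been reported as targets of the IGF2BP family of RNA-binding proteins. They are 7 of the 19962 genes in the deposited count table, found by matching the table's Ensembl identifiers to gene symbols, and all 7 passed the filter on low counts that left 11428 genes. The 40 RNA libraries come from RKO, a human line established from a colorectal carcinoma, here carrying Cas9 under a doxycycline-inducible promoter with a GFP marker. Lentiviral vectors gave each of 3 lines a pair of guide RNAs and the marker eBFP2, for which the cells were sorted, so a line is a mixed population and not a clone. The guides were directed against AAVS1, a safe-harbour locus used as a control (sgAAVS1), against IGF2BP2 (sgIGF2BP2) or against IGF2BP3 (sgIGF2BP3).

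There were 10 groups of 4 libraries. Each line had a group with 250 ng/mL doxycycline (Dox) for 72 hours, which induces Cas9, and a group with the DMSO control. The sgIGF2BP2 and sgIGF2BP3 lines also had a group transfected with a pool of small interfering RNAs (siRNAs) against the gene of the same name, siIGF2BP2 or siIGF2BP3, at 75 nM for 48 hours, and a group with a non-targeting siRNA, siControl. The siRNA groups carry the guides and the Cas9 cassette too but received no Dox. All cells, controls included, received 4-thiouridine (s4U), a label for newly made RNA, at 250 µM for 2 hours, and the counts used here cover new and old RNA together. Each condition was 1 well of a plate, done in quadruplicate. Nothing in the labels says that the 4 wells were independent cultures, so the p-values measure the spread between these samples, which may be technical. In such bulk samples a lower count from fewer RNA copies per cell and one from fewer cells of a kind cannot be told apart.

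IGF2BP proteins bind mRNAs, often in the 3′ untranslated region (UTR), through KH domains, and are known to hold bound mRNAs in granules, to slow their decay and to affect their translation. They have been reported to prefer sites with N6-methyladenosine, a methyl mark placed in sequences such as TGGAC. IGF2BP3 is made mainly in embryonic tissue and returns in many tumours, whereas IGF2BP2 is also made in adult tissues. MYC encodes a transcription factor that drives growth and ribosome production. CCND1 encodes cyclin D1, and CDK6 a kinase that D-type cyclins activate to phosphorylate RB and open the way into S phase. HMGA1 and HMGA2 encode architectural chromatin proteins that bind AT-rich DNA. CD44 encodes the cell-surface receptor for hyaluronan, and CTNNB1 encodes β-catenin, a part of cell junctions and the effector of Wnt signalling. HMGA2 is the textbook target of the let-7 microRNAs, from which IGF2BP proteins have been reported to shield mRNAs.

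The guides are shown because they define the knockout groups, and to show how far each is from the transcripts of the 7 genes. They are given 5′ to 3′ as in the labels, with the 10 bases nearest the PAM in capitals.
IGF2BP2 guide 1: atatgtgacgTTGACAACGG
IGF2BP2 guide 2: gtgcgctgagGTTCAACCCT
IGF2BP3 guide 1: tggcaccgacTGATAGAGCT
IGF2BP3 guide 2: gaagatacttTCTAGGTCCG
AAVS1 guide 1: cgctgtgcccCGATGCACAC
AAVS1 guide 2: ggcgcgtcgcTCGCTCGCTC
Over both strands of the reference transcripts of the 7 genes, the closest stretch had 6 and 7 mismatches to the IGF2BP2 guides, 6 and 4 to the IGF2BP3 guides, and 6 and 4 to the AAVS1 guides, in the order shown. The sequences of the siRNA pools are not used here, so the same comparison was not made for them. Introns, promoters and PAMs were not examined, so the mismatches do not show whether a guide could cut these genes.

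HMGA1 and HMGA2 were the only 2 of the 7 whose reference 3′ UTR holds the let-7 seed match CTACCTC, the reverse complement of bases 2 to 8 of let-7. Those matches are shown because these related genes are read side by side in the results. Let-7a (RefSeq sequence, GRCh38, chr9:94175962-94175983, plus strand) is given with its seed in capitals, and each site with its match in capitals.
let-7a: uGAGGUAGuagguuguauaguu
HMGA1 match 1: tcctctgttcacaaaCTACCTC
HMGA2 match 1: gccaacgttcgatttCTACCTC
HMGA2 match 2: ccccactactcaataCTACCTC
HMGA2 match 3: ttgacttgcaaagacCTACCTC
HMGA2 match 4: aatcaaaacacactaCTACCTC
The HMGA1 match lies at chr6:34245829-34245850, and the HMGA2 matches at chr12:65963298-65963319, chr12:65964533-65964554, chr12:65964945-65964966 and chr12:65965798-65965819, all on the plus strand of GRCh38. Among 11400 tested genes with a reference transcript, 1189 (10.4%) had at least 1 such match in the 3′ UTR and 8 had 4 or more. UTR length matters to that share, and of the 1175 tested UTRs of 2500 to 3500 bases, the range that holds the 3003 bases of HMGA2, 14.9% had a match and 0.17% had 4 or more. The letters TGGAC occur in 94.3% of tested transcripts, with a median of 1.14 per kb. CTNNB1 held 2.32 per kb, HMGA1 1.85, CD44 1.74, CCND1 1.39, MYC 0.845, CDK6 0.689 and HMGA2 0.671, between the 22.9th and the 88.4th percentile of tested transcripts. A match is only a run of letters and does not say that a protein or microRNA binds there.

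In GRCh38, CCND1 (ENSG00000110092) spans chr11:69641087-69654474 on the plus strand, and CD44 (ENSG00000026508) spans chr11:35138870-35232402 on the plus strand. HMGA1 (ENSG00000137309) spans chr6:34236873-34246231 and HMGA2 (ENSG00000149948) spans chr12:65824131-65966295, both on the plus strand. CTNNB1 (ENSG00000168036) spans chr3:41194741-41260096 on the plus strand, CDK6 (ENSG00000105810) spans chr7:92604921-92836594 on the minus strand, and MYC (ENSG00000136997) lies on chromosome 8. CCND1 shares 497 exon bases with LTO1 on the opposite strand, and whether the counting used strand is not given in the sources used here. LTO1 had group means of 12.03 to 15.94 CPM (counts scaled to a common library size), against 137 to 247 CPM for CCND1. HMGA1 has 7 named pseudogenes in the annotation, so its counts are uncertain where reads fit more than 1 copy.

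Total counts per library ran from 10018181 to 24822807 (median 13468792), and no 2 replicates were alike within sampling noise. The biological coefficient of variation was 3.79% over all genes and 2.75% to 4.06% for the 7. The epithelial keratins KRT8 and KRT18 (41.6 to 76.5 and 114 to 218 CPM), EPCAM and the intestinal factor CDX2 were present, while KRT19, CDH1, VIL1, LGR5 and KRT20 had at most 4 counts in any library. COL1A1 reached 11 counts, and the leukocyte and endothelial markers PTPRC, PECAM1 and CDH5 at most 3. A pair of libraries stood apart. Of 60 pairs of replicates, the 3 most unlike pairs were those of sgIGF2BP2 Dox replicate 2 (chi-square 11.6 to 16.3 per gene, where sampling noise alone gives 1). The next 3 were those of siIGF2BP2 replicate 3 (5.59 to 6.40), and the other 54 pairs were at 4.85 or below. Calls of the 7 genes that rest on these libraries are given with and without them. Other values, such as the correlations over the 40 libraries, are given with them only unless stated.

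Each treatment lowered the mRNA it was aimed at. By edgeR's quasi-likelihood test, IGF2BP2 mRNA fell by 60.5% after Dox in sgIGF2BP2 cells and fell by 72.1% after siIGF2BP2 (fell by 71.8% without siIGF2BP2 replicate 3). IGF2BP3 mRNA fell by 68.9% after Dox in sgIGF2BP3 cells and fell by 85.4% after siIGF2BP3 (edgeR adjusted p from 6.37e-53 to 6.42e-33 over these 4 tests). The other paralog moved too in 1 case, since IGF2BP3 mRNA fell by 15.7% after Dox in sgIGF2BP2 cells (adjusted p = 2.93e-06, or 5.87e-05 without replicate 2). After siIGF2BP2 it did not pass the test (log2 fold change −0.04, 95% interval −0.12 to 0.0395, adjusted p = 0.456, or −0.02 and 0.74 without siIGF2BP2 replicate 3).

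Per kilobase of transcript, HMGA1 was the most abundant of the 7, with a mean of 1747 CPM per kb over the 40 libraries. MYC followed with 151, CTNNB1 with 86.9, HMGA2 with 51.2, CCND1 with 47.9, CD44 with 26.6 and CDK6 with 5.44 CPM per kb. The smallest count of any of the 7 in any library was 503, for CDK6. HMGA1 and CCND1 varied most between groups, with a ratio of highest to lowest group mean of 1.96 and 1.80. MYC had a ratio of 1.52, CDK6 1.51, CD44 1.34 and HMGA2 1.30. CTNNB1 was nearly level at 1.06, and the libraries of all 9 neighbouring groups in its order of means overlapped.

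In the order of group means, most neighbours overlapped. MYC had 1 gap, below which lay sgAAVS1 Dox (293.9 ± 19.2 CPM) and siIGF2BP2 (271.2 ± 9.53 CPM), with the other 8 groups at 357 to 412 CPM. HMGA1 had 2 gaps, which set 7 groups at 4051 to 4220 CPM apart from sgIGF2BP2 Dox and sgAAVS1 Dox (3383 ± 210 and 3295 ± 137 CPM) and these from siIGF2BP2 (2158 ± 87.9 CPM). CCND1 was highest in both siControl groups and siIGF2BP3 (240.0 to 247 CPM) and lowest, across a gap, in siIGF2BP2 (137.4 ± 3.87 CPM). CDK6 was high in the same 3 groups (76.8 to 80.5 CPM), with a gap to the other 7. HMGA2 was higher in the 4 siRNA groups (247 to 261 CPM) than in the 6 others (201.0 to 221 CPM). CD44 had 1 gap, with siIGF2BP2 alone below it (131.8 ± 4.37 CPM) and sgIGF2BP2 Dox at the top (176.6 ± 7.89 CPM).

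**Figure D1:**
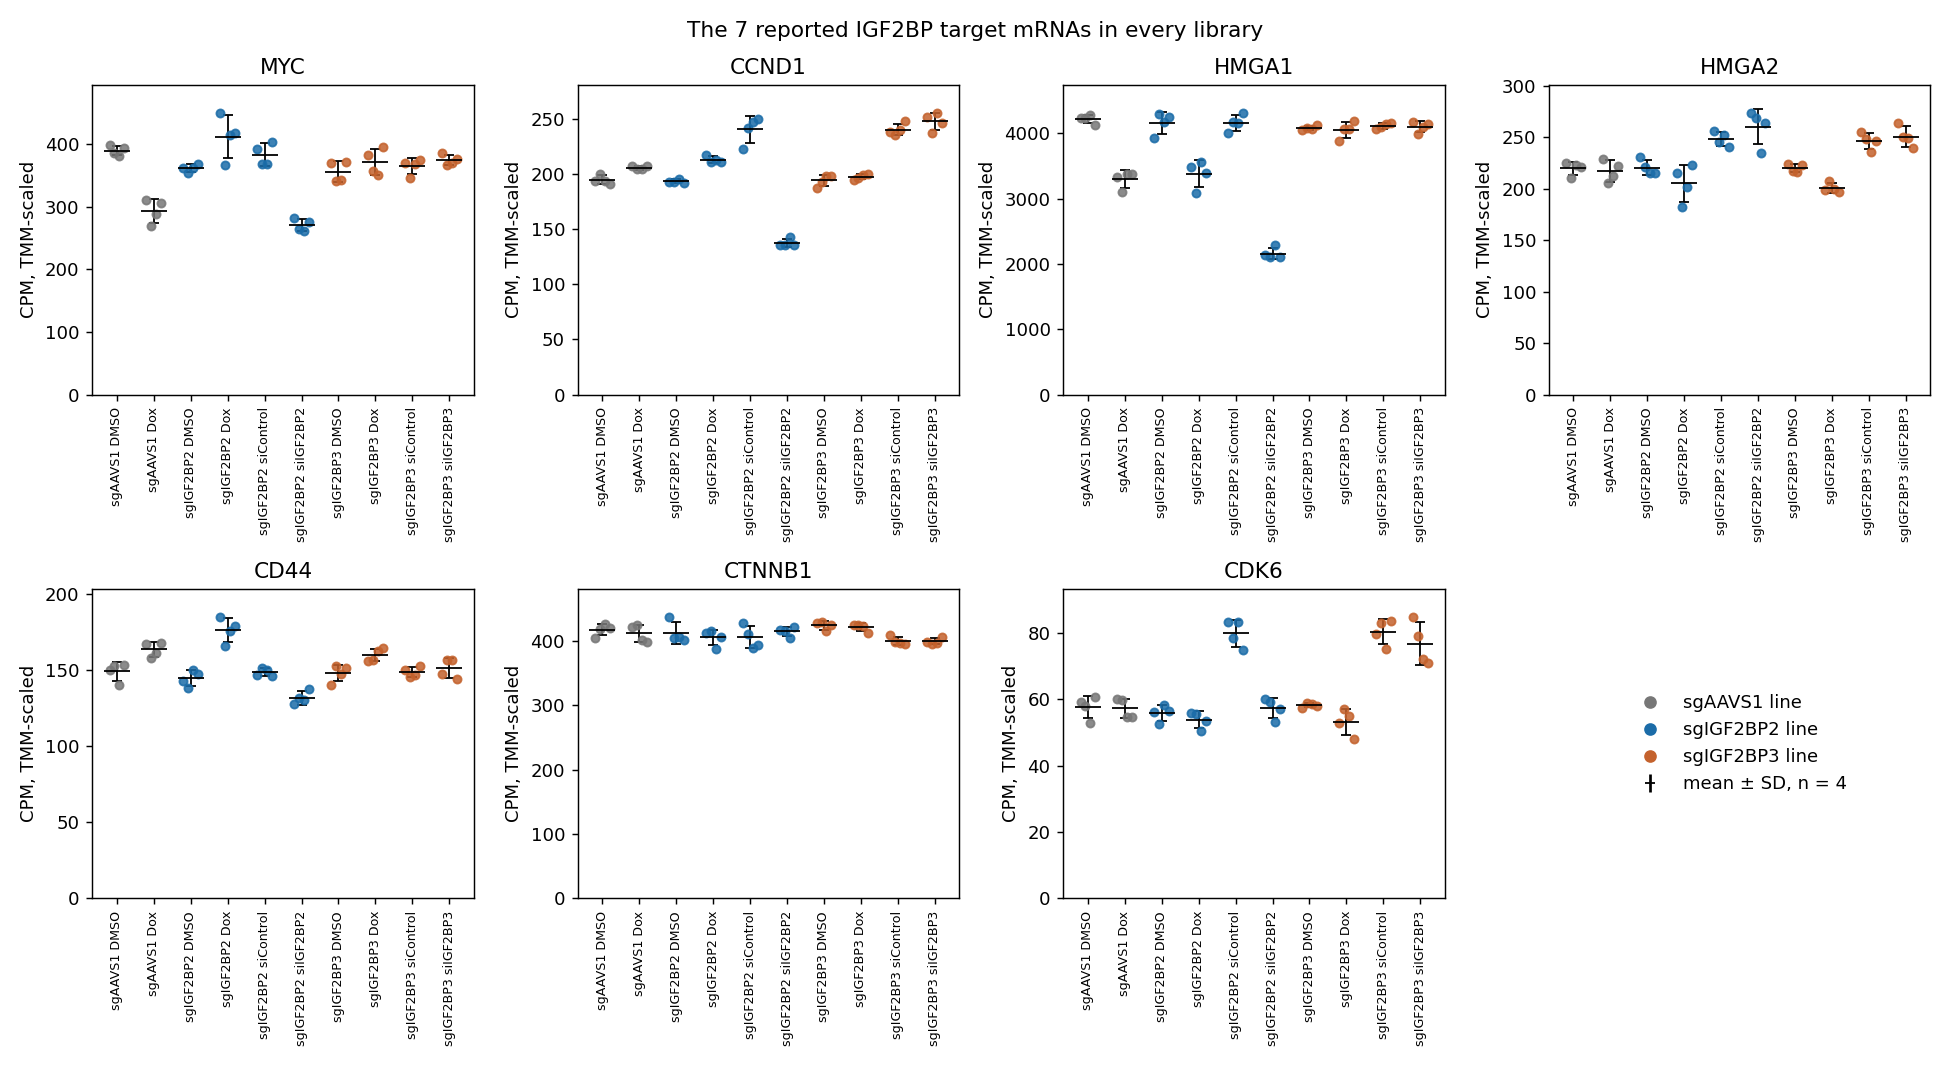
TMM-scaled CPM of each gene (vertical axes, from 0, each panel with its own scale) in the 10 groups (horizontal axis), with a point per library and bars for mean ± SD (n = 4). HMGA1, CCND1, MYC and CD44 have their lowest group mean in siIGF2BP2 cells, CDK6 group means stand near 80 CPM in 3 of the 4 siRNA groups and under 60 CPM elsewhere, and CTNNB1 is flat.

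The first question was what siIGF2BP2 did to the 7 mRNAs. By edgeR, 5 of the 7 fell, none rose, and in all 5 the 4 siIGF2BP2 libraries lay below the 4 siControl libraries. HMGA1 and CCND1 fell most, then MYC and CDK6, and CD44 least, while HMGA2 and CTNNB1 did not pass the test. The treatment was broad, since 36.8% of all tested genes were called here at an adjusted p under 0.05, 18.4% as lower, and 30.6% had no overlap between groups. The median log2 fold change of the 7 was −0.48, against 0.01 over all tested genes. In mean CPM the 7 lay from the 69.5th percentile of tested genes (CDK6) to the 99.9th (HMGA1). The shares over all genes are not matched for abundance, and the 7 were chosen with earlier results of these data known. Without siIGF2BP2 replicate 3, edgeR called the same 5 genes and HMGA2, and 33.7% of all tested genes.

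MYC, the transcription factor, had 393, 369, 369 and 404 CPM in the siControl libraries and 282, 265, 261 and 277 CPM in the siIGF2BP2 libraries, in replicate order. The groups lie well apart. MYC fell by 29.3% (log2 fold change −0.50, SE 0.042, adjusted p = 7.29e-16), or by 0.48 on the log2 scale without replicate 3 (adjusted p = 1.67e-14). In all 10 groups of the study, replicates 1 and 4 each held more MYC than replicates 2 and 3. That pattern was noticed in the values, and the other 6 genes had it in 1 to 3 of the 10 groups.

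CCND1, the cyclin, had 222, 242, 247 and 249 CPM with siControl and 136, 135, 143 and 135 CPM with siIGF2BP2. Even the highest treated library lay far below the lowest control library, and CCND1 fell by 42.7% (log2 fold change −0.80, SE 0.033, adjusted p = 1.95e-31, or −0.83 and 1.72e-31 without replicate 3). LTO1, on the opposite strand of CCND1, stood at 12.7 ± 1.41 CPM with siControl and 15.9 ± 1.51 CPM with siIGF2BP2. CDK6, the partner kinase, had 83.3, 78.4, 83.4 and 75.0 CPM with siControl and 60.1, 59.3, 53.3 and 57.2 CPM with siIGF2BP2. These groups do not overlap either, and CDK6 fell by 28.4% (log2 fold change −0.48, SE 0.052, adjusted p = 7.42e-12, or −0.45 and 3.87e-10 without replicate 3).

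The chromatin gene HMGA1 had 3999.8, 4169, 4154 and 4309 CPM with siControl and 2139, 2100, 2287.5 and 2107 CPM with siIGF2BP2. It fell by 48.1% (log2 fold change −0.95, SE 0.036, adjusted p = 1.20e-33, or −0.98 and 4.37e-35 without replicate 3), the largest change among the 7. In size that was at or above the change of 99.1% of tested genes, and the same figure was 98.5% for CCND1, 94.0% for MYC and 93.4% for CDK6. HMGA2, the relative of HMGA1 with 4 let-7 seed matches, was measured at 256, 245, 252 and 241 CPM with siControl and at 274, 269, 235 and 264 CPM with siIGF2BP2. Replicate 3 of the treated group lay below all control libraries and the other 3 lay above them. Its log2 fold change was 0.07 (95% interval −0.0151 to 0.149, adjusted p = 0.204), and without that replicate it was 0.11 with an adjusted p of 0.0269. 
CD44, the hyaluronan receptor, had 147, 151, 150.4 and 147 CPM with siControl and 128, 132, 130.3 and 138 CPM with siIGF2BP2, groups that lie close together without overlap. It fell by 11.3% (log2 fold change −0.17, SE 0.038, adjusted p = 1.63e-04, or −0.17 and 5.92e-04 without replicate 3), and 61.9% of tested genes changed by as much or less. CTNNB1, the β-catenin gene, averaged 405.9 ± 17.2 and 415.1 ± 6.94 CPM, with overlapping libraries and a log2 fold change of 0.03 (95% interval −0.0312 to 0.0947, adjusted p = 0.457, or 0.04 and 0.34 without replicate 3).

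After siIGF2BP3, none of the 7 was called by edgeR, none by DESeq2, and none had an unadjusted p under 0.05. Here 2.34% of all tested genes were called. HMGA1 averaged 4116 ± 46.9 CPM with siControl and 4101 ± 82.9 CPM with siIGF2BP3, a log2 fold change of −0.01 (95% interval −0.0759 to 0.0656). Those means differ by less than the SD of either group. CCND1 averaged 240.0 ± 5.31 and 247.4 ± 7.67 CPM (0.04, interval −0.0207 to 0.108), and MYC 365.2 ± 12.5 and 375.4 ± 8.35 CPM (0.04, interval −0.0429 to 0.124). The change furthest from 0 was that of CDK6, from 80.5 ± 3.85 to 76.8 ± 6.54 CPM (−0.07, interval −0.166 to 0.0358, adjusted p = 0.627). In all 7 the libraries of both groups overlapped, while 9.96% of tested genes had no overlap. IGF2BP3 mRNA fell by 85.4% in these same libraries.

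The effect of siIGF2BP2 was set against that of siIGF2BP3 in a contrast chosen after seeing the data, which shares no library between its sides. In it 18.7% of tested genes were called, 9.88% as lower with siIGF2BP2. HMGA1 (log2 difference −0.94), CCND1 (−0.85), MYC (−0.54), CDK6 (−0.42) and CD44 (−0.20) were called as lower, with adjusted p from 6.53e-25 to 0.00455 by edgeR. HMGA2 (0.04, 95% interval −0.0752 to 0.157, adjusted p = 0.687) and CTNNB1 (0.03, interval −0.0562 to 0.122, adjusted p = 0.67) were not. Without siIGF2BP2 replicate 3 the same 5 were called, at −0.97, −0.87, −0.53, −0.38 and −0.19, and HMGA2 (0.09) and CTNNB1 (0.04) again were not. The 2 treatments were applied in different lines, so the siRNA and the line cannot be told apart in this contrast.

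**Figure D2:**
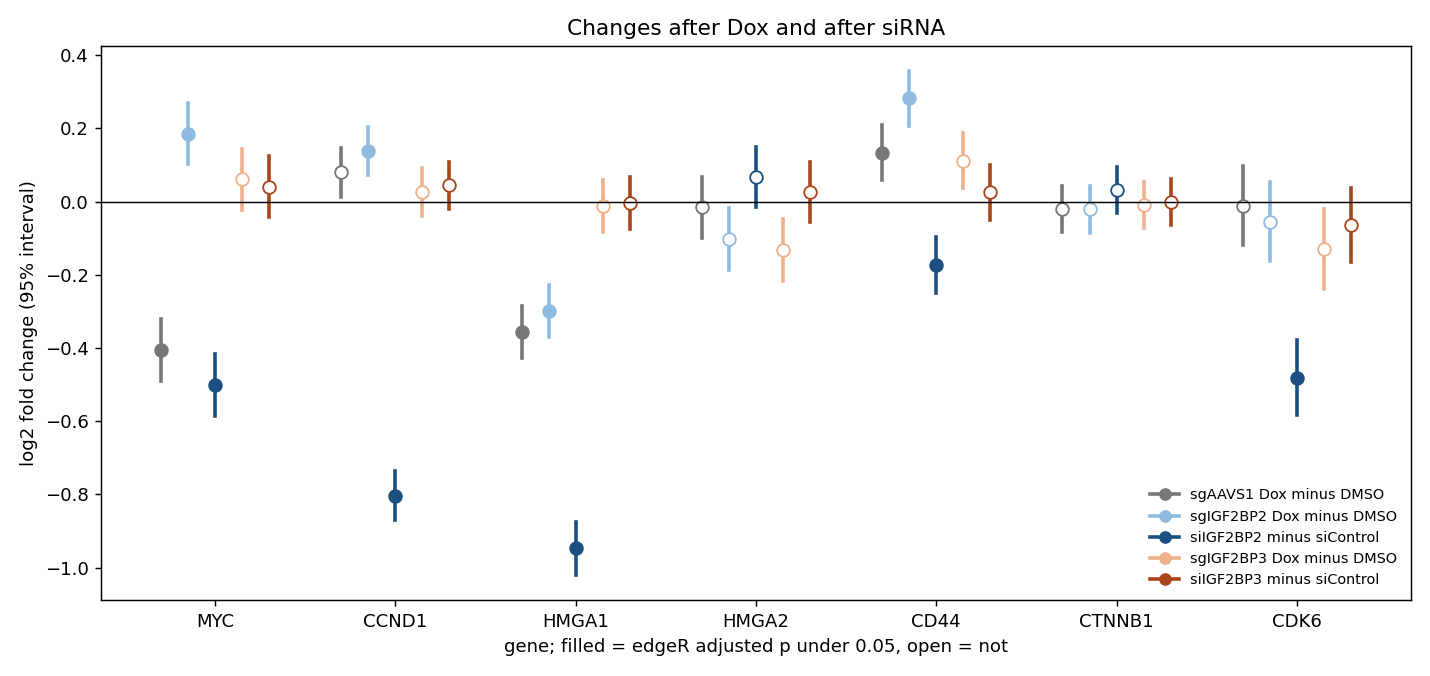
log2 fold changes of the 7 genes (vertical axis) with 95% intervals, for Dox against DMSO in each line and for each siRNA against siControl. Filled points passed the edgeR test at an adjusted p under 0.05 and open points did not. The dark blue points of siIGF2BP2 lie at −0.80 and −0.95 for CCND1 and HMGA1, where no other treatment went below −0.36.

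The next question was whether guide-directed loss of the same genes moved the 7 mRNAs the same way. With Dox in sgIGF2BP2 cells, 4 of the 7 were called, against 20.4% of all tested genes (4 and 18% without Dox replicate 2). MYC, CCND1 and CD44 rose, against 10.0% of tested genes called as higher, and HMGA1 fell, against 10.4% called as lower. Among these 4, 3 had no overlap between groups, which held for 18.0% of tested genes. All 3 genes that rose here had fallen after siIGF2BP2.

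MYC had 363, 355, 362 and 369 CPM with DMSO and 450.1, 367, 415 and 418 CPM with Dox. Dox replicate 2, a library that stood apart, lay within the DMSO range and the other 3 lay above it. The log2 fold change was 0.19 (SE 0.042, adjusted p = 5.62e-04) and 0.24 without that replicate (adjusted p = 5.20e-06). CCND1 had 193, 193, 196 and 192 CPM with DMSO and 217, 211, 212 and 211 CPM with Dox, a small shift with no overlap (0.14, SE 0.033, adjusted p = 0.00119, or 0.00213 without replicate 2). CD44 had 143, 138, 149.9 and 148 CPM with DMSO and 185, 166, 176 and 179 CPM with Dox. The groups were apart and CD44 rose by 21.6% (0.28, SE 0.037, adjusted p = 1.82e-08), or by 0.31 on the log2 scale without replicate 2 (adjusted p = 3.09e-09).

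HMGA1 had 3925, 4292, 4169 and 4246 CPM with DMSO and 3484, 3085, 3563 and 3399.7 CPM with Dox, with replicate 2 the lowest. It fell by 18.7% (log2 fold change −0.30, SE 0.036, adjusted p = 8.36e-10), and fell by 0.26 on the log2 scale without replicate 2 (adjusted p = 1.60e-08). HMGA2 averaged 220.6 ± 7.16 and 205.7 ± 18.0 CPM and missed the threshold (−0.10, 95% interval −0.186 to −0.0181, adjusted p = 0.0765). Without Dox replicate 2 its value was −0.04 (adjusted p = 0.52), and without Dox replicate 4 it was −0.15 (adjusted p = 0.0134). CTNNB1 (412.3 ± 17.1 and 405.7 ± 12.2 CPM, adjusted p = 0.692) and CDK6 (55.9 ± 2.42 and 53.9 ± 2.54 CPM, adjusted p = 0.531) did not pass.

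With Dox in sgIGF2BP3 cells, edgeR and DESeq2 each called none of the 7, and 3 had an unadjusted p under 0.05. The test called 2.64% of all genes here. HMGA2 had 224, 217, 217 and 223 CPM with DMSO and 199, 208, 199.9 and 197 CPM with Dox (log2 fold change −0.13, SE 0.042, adjusted p = 0.0715). CD44 averaged 148.3 ± 5.59 and 160.2 ± 4.18 CPM (0.11, SE 0.038, adjusted p = 0.0915), and CDK6 58.2 ± 0.621 and 53.3 ± 3.94 CPM (−0.13, SE 0.055, adjusted p = 0.195). In these 3 genes the groups did not overlap, as in 10.4% of all tested genes. HMGA2 was called with an adjusted p of 0.00752 when only these 2 groups were fitted. MYC (356.6 ± 17.4 and 371.8 ± 21.1 CPM), CCND1 (193.9 ± 4.87 and 197.4 ± 2.36), HMGA1 (4083 ± 32.3 and 4051 ± 123) and CTNNB1 (424.5 ± 6.71 and 421.7 ± 6.37) had adjusted p from 0.495 to 0.915.

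The sgAAVS1 line had Dox and Cas9 cutting without an IGF2BP guide. Its guides, the line itself and a response to Dox and Cas9 cannot be told apart within it. Here MYC and HMGA1 fell and CD44 rose, 3 of the 7 by edgeR against 15.9% of all tested genes (7.25% called as higher and 8.68% as lower). MYC had 398, 386, 382 and 394 CPM with DMSO and 311, 269, 289 and 307 CPM with Dox, a wide gap (log2 fold change −0.41, SE 0.042, adjusted p = 1.70e-11). HMGA1 had 4234, 4232, 4282 and 4133 CPM with DMSO and 3325, 3094, 3380 and 3381 CPM with Dox, also apart (−0.36, SE 0.036, adjusted p = 4.25e-12). CD44 averaged 149.4 ± 6.15 and 163.9 ± 4.86 CPM (0.13, SE 0.038, adjusted p = 0.00837), and without sgAAVS1 DMSO replicate 3 it was no longer called (0.10, adjusted p = 0.0741). CCND1 had 194.5 ± 4.01 and 205.4 ± 1.66 CPM with no overlap and missed the threshold (0.08, SE 0.033, adjusted p = 0.0916). The groups of 4 genes did not overlap, against 17.5% of all tested genes. HMGA2, CTNNB1 and CDK6 had adjusted p from 0.718 to 0.912.

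The sgAAVS1 DMSO libraries held more MYC (382 to 398 CPM) than any of the 8 DMSO libraries of the other lines (341 to 373 CPM). That difference between lines was not tested. The log2 fold changes of MYC with Dox were −0.41, 0.19 and 0.06 in the sgAAVS1, sgIGF2BP2 and sgIGF2BP3 lines, and the difference itself was tested. Relative to the change in sgAAVS1 cells, MYC was higher by 0.59 in sgIGF2BP2 cells (SE 0.059, adjusted p = 1.51e-11, 0.65 without Dox replicate 2), the only call among the 7 where 6.97% of all tested genes were called (4.01% as higher). CD44 was next in that contrast at 0.15 (adjusted p = 0.0739), and was called without sgIGF2BP2 Dox replicate 2 (0.18, adjusted p = 0.0299) or without sgAAVS1 DMSO replicate 3 (0.18, adjusted p = 0.0367).

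For sgIGF2BP3 cells the same comparison called MYC (0.47, SE 0.06, adjusted p = 1.33e-07) and HMGA1 (0.35, SE 0.05, adjusted p = 1.62e-06), against 7.78% of all tested genes (4.53% as higher). Both comparisons use the same 8 sgAAVS1 libraries, so they are not independent of each other. HMGA1 fell with Dox by 0.36 in sgAAVS1 and by 0.30 in sgIGF2BP2 cells on the log2 scale, and the difference did not pass the test (0.06, 95% interval −0.041 to 0.159, adjusted p = 0.536, or 0.10 and 0.186 without sgIGF2BP2 Dox replicate 2). The rise of CCND1 in sgIGF2BP2 cells likewise did not differ detectably from the change in sgAAVS1 cells (0.06, interval −0.0346 to 0.151, adjusted p = 0.505, or 0.06 and 0.494 without that replicate).

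Knockout and siRNA of the same gene were then compared directly, as the Dox effect minus the siRNA effect, which share no library. The Dox effect can include changes seen without an IGF2BP guide, as in sgAAVS1 cells (MYC −0.41, HMGA1 −0.36, CD44 0.13 on the log2 scale). With the same Dox in sgIGF2BP3 cells these genes stood at 0.06, −0.01 and 0.11, and none was called. Whether the sgAAVS1 changes are a response to Dox and Cas9 that other lines share was not tested. The siRNA effect is read from siControl, which in sgIGF2BP2 cells stood above DMSO for CDK6 (0.51) and CCND1 (0.31). The hours of treatment differed too. A difference here is thus one between treatments, and the share due to loss of the targeted mRNA was not tested. For IGF2BP2, 6 of the 7 differed by edgeR, against 26.1% of all tested genes (13.7% as higher under knockout and 12.4% as lower). CCND1 stood 0.94 higher under knockout on the log2 scale (SE 0.047, adjusted p = 1.95e-26) and MYC 0.69 higher (SE 0.059, adjusted p = 3.38e-15). HMGA1 was higher by 0.65 (SE 0.05, adjusted p = 4.48e-17), CD44 by 0.45 (SE 0.053, adjusted p = 2.08e-10) and CDK6 by 0.43 (SE 0.075, adjusted p = 7.56e-06). Without sgIGF2BP2 Dox replicate 2 these 5 differences were 0.95, 0.74, 0.69, 0.48 and 0.41, and without siIGF2BP2 replicate 3 they were 0.96, 0.67, 0.68, 0.45 and 0.39, all still called. HMGA2 was lower (−0.17, SE 0.059, adjusted p = 0.0255), a call lost without sgIGF2BP2 Dox replicate 2 (−0.11, adjusted p = 0.14) and in 5 other alternatives, and kept without siIGF2BP2 replicate 3 (−0.21, adjusted p = 0.0025). CTNNB1 did not pass (−0.05, 95% interval −0.143 to 0.0356, adjusted p = 0.415). IGF2BP2 mRNA itself differed by 0.50 in the same contrast (SE 0.073, adjusted p = 1.13e-07, or 0.50 without sgIGF2BP2 Dox replicate 2 and 0.48 without siIGF2BP2 replicate 3), the siRNA having left the smaller share of its own control level. The remaining levels of IGF2BP2 mRNA overlapped, at 29.51 to 38.02 CPM with Dox and 29.23 to 31.69 CPM with siIGF2BP2. These counts do not tell edited from intact transcripts, and they do not measure protein. Overlapping mRNA levels thus do not show an equal loss of function. Of the 7, HMGA1 alone was called as lower by both treatments of IGF2BP2. Its fall with Dox did not differ detectably from that in sgAAVS1 cells (adjusted p = 0.536, or 0.186 without sgIGF2BP2 Dox replicate 2). With Dox in sgIGF2BP3 cells HMGA1 did not pass the test (−0.01, 95% interval −0.0823 to 0.0592, adjusted p = 0.911). The cause of its fall in sgIGF2BP2 cells was not tested.

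For IGF2BP3, the Dox effect minus the siRNA effect called none of the 7 by edgeR or by DESeq2, where 1.36% of all tested genes were called and 1 of the 7, HMGA2, had an unadjusted p under 0.05. HMGA2 had a difference of −0.16 (95% interval −0.276 to −0.0406, adjusted p = 0.205). CD44 had 0.09 (interval −0.0202 to 0.192), and the other 5 lay between −0.07 and 0.02 with intervals that all include 0.

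**Figure D3:**
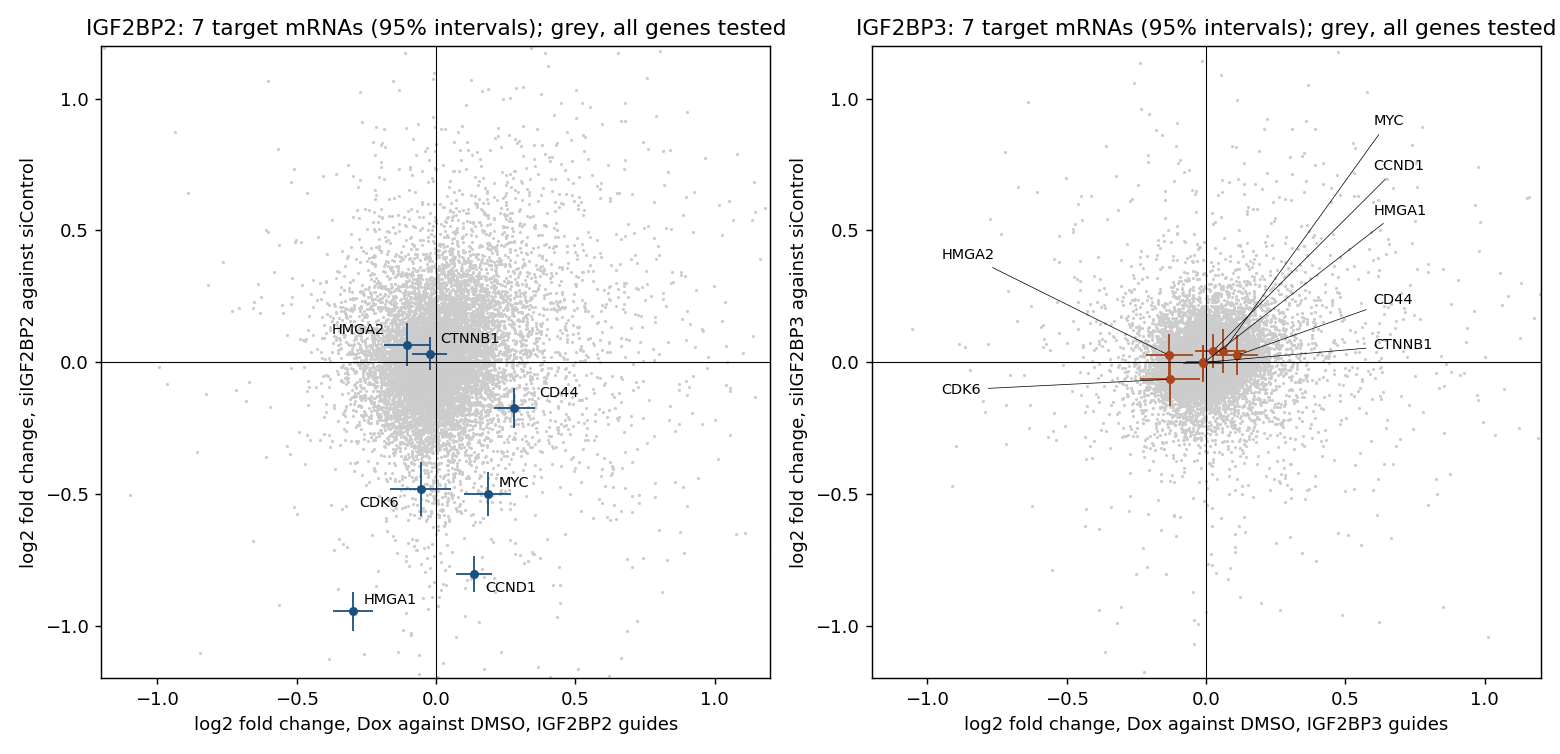
log2 fold change after Dox (horizontal axis) against that after siRNA (vertical axis) for the IGF2BP2 guides and siRNA (left) and those of IGF2BP3 (right). Coloured points are the 7 genes with 95% intervals and grey points are the 11428 tested genes, of which 71 (left) and 16 (right) lie outside the axes at ±1.2. On the left, MYC, CCND1 and CD44 sit right of 0 and below 0, and HMGA1 sits left and below, while on the right all 7 lie near the origin.

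Because the siRNA effects are read against siControl and the knockout effects against DMSO, the 2 controls of a line were compared. CDK6, CCND1 and HMGA2 were higher with siControl in both lines. Their libraries did not overlap in either line. In sgIGF2BP2 cells, where 18.4% of all tested genes were called (10.2% as higher) and 20.3% had no overlap, CDK6 rose by 42.7% (log2 fold change 0.51, SE 0.051, adjusted p = 1.71e-12), CCND1 by 24.0% (0.31, SE 0.032, adjusted p = 8.85e-12) and HMGA2 by 12.9% (0.17, SE 0.041, adjusted p = 0.00121). In sgIGF2BP3 cells, where 19.4% were called (10.9% as higher, 8.54% as lower) and 21.9% had no overlap, CDK6 rose by 38.4% (adjusted p = 5.26e-11), CCND1 by 23.7% (adjusted p = 1.19e-11) and HMGA2 by 11.9% (adjusted p = 0.00274). CTNNB1 fell by 5.77% there (adjusted p = 0.0456), a call lost in 7 of 13 alternatives. IGF2BP2 mRNA moved with them, by 0.34 and 0.28 on the log2 scale (adjusted p = 4.48e-09 and 6.46e-07). The siControl cells were transfected and received neither Dox nor DMSO, and transfection, solvent and time in culture cannot be told apart here.

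Set against DMSO cells of the same line, the siIGF2BP2 libraries held 51.9 ± 2.11% of the HMGA1 level, 71.0 ± 2.00% of CCND1, 74.9 ± 2.63% of MYC and 91.0 ± 3.01% of CD44 (SD, n = 4). CDK6 stood at 103 ± 5.41% of its DMSO level after siIGF2BP2, so its fall was from the raised siControl level of 143 ± 7.31%. HMGA2 stood at 118 ± 7.84% and CTNNB1 at 101 ± 1.68%. Without replicate 3 the siIGF2BP2 means were 50.9% for HMGA1, 70.0% for CCND1, 75.8% for MYC, 91.4% for CD44, 105% for CDK6, 122% for HMGA2 and 101% for CTNNB1. After siIGF2BP3, CDK6 was at 132 ± 11.2% and CCND1 at 128 ± 3.95%, close to their siControl levels of 138 ± 6.62% and 124 ± 2.74%. The siIGF2BP2 means of HMGA1, CCND1, MYC and CD44 were thus below both controls, and that of CDK6 was below siControl only. These percentages were not tested.

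**Figure D4:**
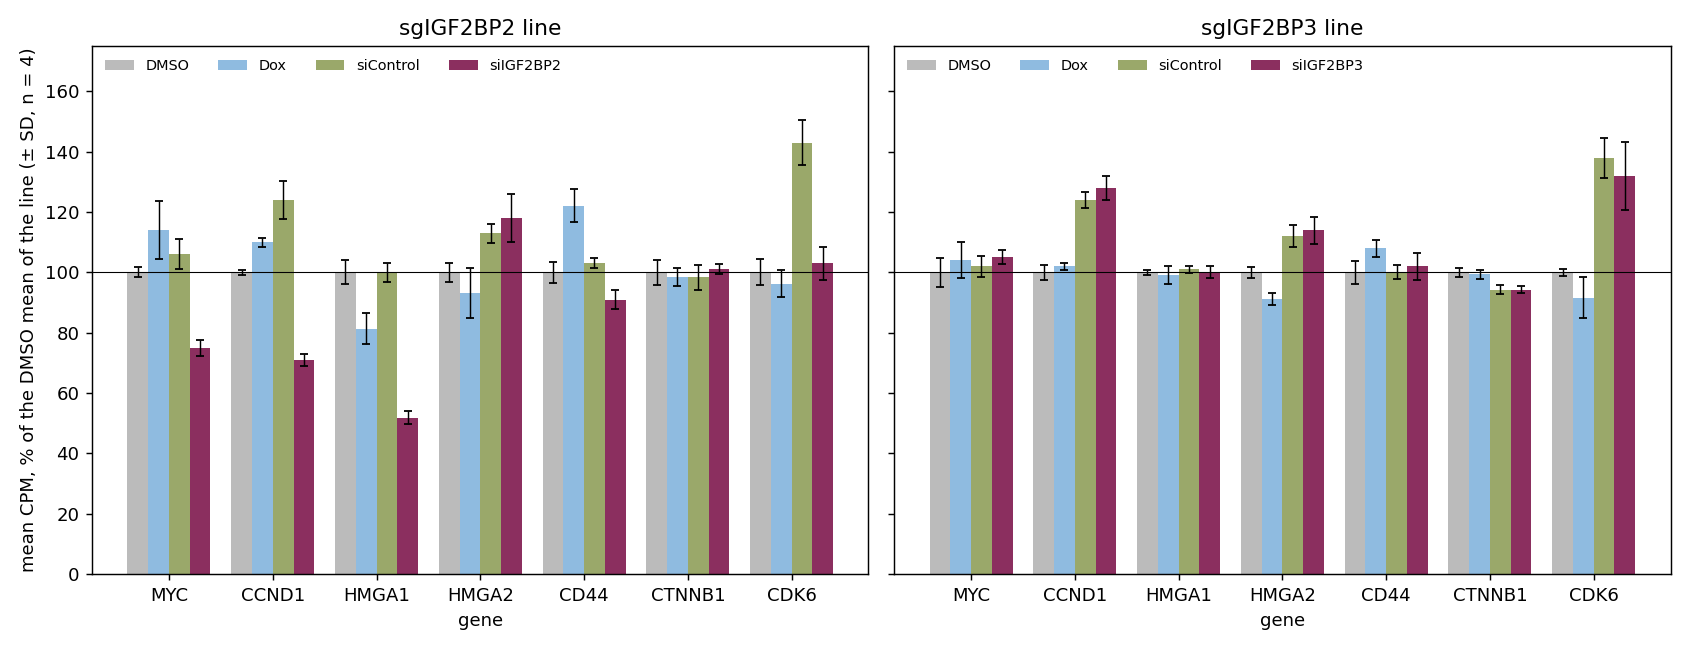
Mean CPM of the 7 genes as a percentage of the DMSO mean of the same line (vertical axis, from 0) in the 4 groups of sgIGF2BP2 cells (left) and sgIGF2BP3 cells (right), with bars for SD (n = 4). CDK6 is near 140% with siControl in both lines and returns to 103% with siIGF2BP2 but not with siIGF2BP3 (132%), and HMGA1 is at 51.9% with siIGF2BP2.

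Other genes of the same pathways were taken from 7 lists written from general knowledge, with earlier results of these data known. The lists are thus not independent of these data. Their counts are to be read against the shares of all tested genes called. Those were 36.8% after siIGF2BP2 (18.4% as lower) and 20.4% with Dox in sgIGF2BP2 cells (10.0% as higher and 10.4% as lower). With Dox in sgAAVS1 cells 15.9% were called (7.25% as higher and 8.68% as lower). The shares were 2.64% with Dox in sgIGF2BP3 cells and 2.34% after siIGF2BP3. Other reported IGF2BP targets moved in both directions. Of the 17 that were tested, 4 were called as higher and 6 as lower after siIGF2BP2, with a median log2 fold change of −0.06 against 0.01 over all tested genes. MTDH, which encodes the tumour-associated protein metadherin, fell from 663 ± 19.8 to 412 ± 12.6 CPM (−0.69, adjusted p = 2.86e-28). The thymidine kinase TK1 rose by 0.23 and the mitotic transcription factor FOXM1 by 0.19. Without siIGF2BP2 replicate 3, 4 were higher and 7 lower, with MTDH at −0.68, TK1 at 0.21 and FOXM1 at 0.20.

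In sgIGF2BP2 cells with Dox, 2 of these 17 were called as higher and 7 as lower (3 and 7 without replicate 2). FOXM1 (−0.36, or −0.35 without that library) and the proliferation marker MKI67 (−0.37, or −0.28) fell, and CCNG1, an atypical cyclin induced by p53, rose by 0.30 (0.25 without it). In sgAAVS1 cells 1 was higher, CCNG1 again (0.31), and 5 were lower, TK1 (−0.29) most. In sgIGF2BP3 cells edgeR called 3 as lower, among them the actin gene ACTB (−0.17), DESeq2 called 2 as lower, and neither called any as higher (6 had an unadjusted p under 0.05). With siIGF2BP3 edgeR called none of the 17, DESeq2 called 1, and 3 had an unadjusted p under 0.05.

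Transcription targets of MYC numbered 29, all tested. After siIGF2BP2, where MYC fell, 16 were called as lower and 2 as higher (median −0.13 against 0.01 over all genes). There 36.8% of all tested genes were called, 18.4% as lower. The ribosome assembly factor MRTO4 fell from 150.3 ± 6.64 to 88.9 ± 5.34 CPM (−0.76), the transferrin receptor TFRC fell by 0.55, and the repair nuclease APEX1 rose by 0.18. The counts were 17 and 2 without siIGF2BP2 replicate 3, and MRTO4, TFRC and APEX1 stood at −0.80, −0.53 and 0.16. After Dox in sgAAVS1 cells, where MYC also fell, 13 were lower and none was higher by edgeR or DESeq2 (15 had an unadjusted p under 0.05), with the nucleolar protein gene NOP56 at −0.24 and the pyrimidine synthesis gene CAD at −0.23. After Dox in sgIGF2BP2 cells, where MYC rose, 8 of the 29 were called as lower and 1 as higher (9 and 1 without replicate 2). Lactate dehydrogenase LDHA (−0.29, or −0.28) and the serine enzyme SHMT2 (−0.25, or −0.26) led those that fell. After Dox in sgIGF2BP3 cells and after siIGF2BP3, edgeR called none of the 29 (5 each had an unadjusted p under 0.05), and DESeq2 called none and 1.

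The MYC network list holds proteins that pair with MYC's partner MAX or set MYC's stability, and 15 of its genes were tested. After siIGF2BP2, where 36.8% of all tested genes were called, 2 rose and 3 fell. The repressor MXD3 was up by 0.70, with the deubiquitinase USP28 at −0.42 and MAX itself at −0.16. Without siIGF2BP2 replicate 3, 2 rose and 2 fell, and MXD3, USP28 and MAX stood at 0.61, −0.40 and −0.14. The repressor MXD4 rose by 0.41 and the ubiquitin ligase gene FBXW7 by 0.33 with Dox in sgIGF2BP2 cells (0.38 and 0.33 without replicate 2), 2 of the 3 called there, and MXD4 rose by 0.20 in sgIGF2BP3 cells, the only call there. In sgAAVS1 cells 3 rose, among them the kinase gene PIM1 (0.34), and 1 fell. With siIGF2BP3 edgeR and DESeq2 called none, and 2 had an unadjusted p under 0.05.

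Beside CCND1 and CDK6, 22 genes of the D-cyclin and RB step were tested, and 5 were called as higher and 5 as lower after siIGF2BP2. Of all tested genes, 36.8% were called there, 18.4% as lower. Cyclin E1, CCNE1, fell from 53.9 ± 1.71 to 30.1 ± 3.94 CPM (−0.83), and the kinase inhibitor CDKN1A fell by 0.38. The inhibitors CDKN1B (0.51) and CDKN2C (0.42) rose. The counts were again 5 and 5 without siIGF2BP2 replicate 3, with CCNE1 at −0.93, CDKN1A at −0.40, CDKN1B at 0.52 and CDKN2C at 0.40. With Dox in sgIGF2BP2 cells 2 rose and 6 fell (3 and 7 without replicate 2). CDKN1A, a p53 target, rose there from 239 ± 7.40 to 341 ± 10.4 CPM (0.51 with and without that library), and it rose by 0.18 in sgAAVS1 cells, where 2 rose and 3 fell. CCND2, which encodes another D-type cyclin, rose by 0.20 with Dox in sgIGF2BP2 cells (0.21 without replicate 2). It fell by 0.22 after siIGF2BP3, where the E2F1 gene rose by 0.16 and no other of the 22 was called. With Dox in sgIGF2BP3 cells edgeR called none, DESeq2 called 1, and 5 had an unadjusted p under 0.05.

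Around CTNNB1, 20 genes of the β-catenin machinery were tested. After siIGF2BP2, 5 were lower and 1 was higher, against 36.8% of all tested genes called (18.4% as lower). AMER1, a scaffold of the destruction complex, stood at −0.44, the transcription cofactor TBL1X at −0.44 and the β-catenin inhibitor CTNNBIP1 at 0.25. Leaving out siIGF2BP2 replicate 3 gave 4 lower and 2 higher, with AMER1 at −0.49, TBL1X at −0.40 and CTNNBIP1 at 0.26. With Dox in sgAAVS1 cells 3 were called, against 15.9% of all tested genes, among them the ubiquitin ligase gene FBXW11 (0.18) and the coactivator PYGO2 (−0.19). With Dox in sgIGF2BP2 or sgIGF2BP3 cells and with siIGF2BP3, edgeR and DESeq2 called none of the 20, and 4, 2 and 2 had an unadjusted p under 0.05.

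Around CD44, 18 genes of hyaluronan turnover, CD44 splicing and shedding were tested, and 9 were lower and 3 higher after siIGF2BP2. The share of all tested genes called there was 36.8%, with 18.4% lower. The hyaluronidase CEMIP2 (−0.67) and the hyaluronan synthase HAS3 (−0.45) fell, and the hyaluronan receptor HMMR rose by 0.68. Leaving out siIGF2BP2 replicate 3 gave 8 lower and 3 higher, with CEMIP2 at −0.61, HAS3 at −0.53 and HMMR at 0.69. The endocytic receptor gene LRP1 rose with Dox in all 3 lines, by 0.29 in sgAAVS1, 0.22 in sgIGF2BP2 (0.24 without replicate 2) and 0.28 in sgIGF2BP3 cells, where it was the only call. LRP1 also rose without Dox, by 0.23 after siIGF2BP2 (0.28 without siIGF2BP2 replicate 3). The splicing factor TRA2B fell by 0.22 with Dox in sgIGF2BP2 cells (fell by 0.20 without replicate 2), where 2 rose and 3 fell. The protease gene MMP14, whose product cleaves CD44, rose by 0.32 after siIGF2BP3 and the sheddase gene ADAM17 fell by 0.19, the only calls there.

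Of 18 tested genes of the LIN28 and let-7 pathway and reported let-7 targets, a list that holds IGF2BP2 and IGF2BP3 themselves, 8 were called as lower and 3 as higher after siIGF2BP2. There 36.8% of all tested genes were called, 18.4% as lower. The phosphatase gene CDC25A fell by 0.43, and DIS3L2, whose product degrades let-7 precursors, rose by 0.20. Leaving out siIGF2BP2 replicate 3 let 19 genes pass the filter, with 9 lower and 3 higher, CDC25A at −0.41 and DIS3L2 at 0.18. With Dox 2 rose and 4 fell in sgIGF2BP2 cells (2 and 5 without replicate 2), led by IGF2BP2 itself and by the chromatin factor ARID3B, which rose by 0.36 (0.40 without it). In sgIGF2BP3 cells 2 fell, IGF2BP3 among them, after siIGF2BP3 only IGF2BP3 was called, and in sgAAVS1 cells 1 rose and 1 fell. Some genes, such as E2F2 and BTRC, stand in more than 1 list.

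The genes most alike to each of the 7 were ranked by Pearson's r of log2 CPM over the 40 libraries, which share groups and lines, so r is a description and mostly follows the group means. SOX9, a transcription factor of intestinal progenitors, was nearest to MYC (r = 0.882). DDAH1 (0.935) and cyclin E1, CCNE1 (0.924), were nearest to CCND1, and the transporter gene ATP13A3 (0.926) and the decapping enzyme DCP2 (0.891) to CDK6. The splicing regulator RBM10 (0.940) and THAP4 (0.935) were nearest to HMGA1, and the integrin gene ITGB1 (0.885) to HMGA2. The p53 target ZMAT3 (0.843) was among the nearest to CD44. CTNNB1, which varied least, had its highest r with RMI1 (0.683). Among the 7 themselves, CCND1 and HMGA1 (0.760), MYC and HMGA1 (0.749) and HMGA2 and CDK6 (0.674) went together most, and HMGA2 and CD44 went apart (−0.564). After removal of the group means the same 4 values were 0.498, 0.419, 0.359 and 0.244.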

How the data were processed

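RNA of 40 libraries was sequenced from poly(A) RNA with a directional kit, per the labels' protocols. Per the submitters' processing notes, bcl2fastq 2.20.0.422, STAR 2.7.5c and the hg38 build were used. The counting tool, its annotation and its strand setting are not given in the sources used here. The deposited values are raw counts per Ensembl gene, not normalized by the authors, for 19962 genes.

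Of these, 19895 were named from a table of gene identifiers, and positions and transcripts come from GENCODE 29 (GRCh38). Libraries were grouped by their labels, and the members and gene lists were chosen with earlier results of these data known. edgeR 4.0.16 (R 4.3.3) kept 11428 genes with filterByExpr. It applied TMM factors (0.978 to 1.03) and fitted all 40 libraries with 1 term per group. Contrasts were tested by quasi-likelihood with Benjamini-Hochberg adjustment over the 11428 genes, and a gene is called at an adjusted p under 0.05. All adjusted p-values in the text are from this test unless DESeq2 1.42.0 is named. Standard errors are the log2 fold change over the root of F, and 95% intervals use the t quantile. CPM are on TMM-scaled library sizes. The code was tested on simulated counts. Alternatives were no low-count filter, relative log expression factors, DESeq2, only the groups of a contrast, the replicate number as a block, and leaving out each library. Besides the 7 genes, at most 2 list genes per list, direction and comparison were named. These had the largest changes among called genes with no overlap between groups and a mean log2 CPM of at least 2. The 3 genes of highest r were kept for each of the 7. A few genes that these rules would name are not reported here.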

Additional observations from a re-analysis of the deposited data

Results flagged for a closer look

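In 3 of 70 sets of 4 replicate libraries, 1 library lay far from the other 3, and chance gives about 1 in 20, or 3.5 sets. CCND1 in siIGF2BP2 replicate 3 was at 143.16 CPM, the others at 135.24 to 135.59. CTNNB1 in sgIGF2BP2 DMSO replicate 1 was at 437.73 CPM, the others at 401.08 to 406.06. CTNNB1 in sgIGF2BP3 Dox replicate 4 was at 412.18 CPM, the others at 423.92 to 425.77.

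The response to a treatment differed between groups, by edgeR's test of the difference itself, in 14 cases, given here as log2 differences. The Dox effect on MYC stood above that in sgAAVS1 cells by 0.5922 in sgIGF2BP2 and by 0.4673 in sgIGF2BP3 cells, and that on HMGA1 by 0.3454 in sgIGF2BP3 cells. The Dox effect less the siRNA effect of IGF2BP2 was 0.6859 for MYC, 0.9417 for CCND1, 0.4262 for CDK6, 0.6481 for HMGA1, −0.1686 for HMGA2 and 0.4548 for CD44. The siIGF2BP2 effect less the siIGF2BP3 effect was −0.5411 for MYC, −0.8478 for CCND1, −0.4159 for CDK6, −0.9408 for HMGA1 and −0.1991 for CD44.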

How the results depend on the processing

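Of 1372 values of the 7 genes under alternatives, 1347 stayed on their side of the threshold, 11 gained a call, 14 lost one, and no called value changed sign. With Dox in sgIGF2BP3 cells the number of the 7 called went from 0 to 1, HMGA2, with no low-count filter (adjusted p = 0.0177), with the replicate number as a block (1 called, 0.04) and with only the groups of the contrast (1 called, 0.00752). For the IGF2BP3 Dox effect minus the siRNA effect it went from 0 to 1 with only those groups (HMGA2, 0.0314). Leaving out 1 library at a time gave 1 to 2 called for sgIGF2BP2 against sgAAVS1, 2 to 3 for sgAAVS1, 4 to 5 for sgIGF2BP2 Dox, 5 to 6 for siIGF2BP2 and for IGF2BP2 Dox minus siRNA, and 3 to 4 for siControl against DMSO in sgIGF2BP3 cells. The other 6 comparisons kept their count. The causes were not tested.

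Over all genes, the deviations of same-numbered libraries from their group means had a mean correlation of 0.0105 over 180 pairs (−0.152 to 0.114, 1 pair over 0.1), against −0.00348 for different numbers. Since not every pair was over 0.1, a strict rule that weak pairing would not meet, the numbers were not taken to pair the libraries. Of 40 libraries, 19 were most like their own number, which with the MYC pattern over replicates is a hint from the data, not the design, of something shared. With the number as a block MYC kept each of its calls, with an adjusted p of 5.73e-16 in place of 1.70e-11 for Dox in sgAAVS1 cells and 4.10e-21 in place of 7.29e-16 for siIGF2BP2. Under the block HMGA2 gained a call with Dox in sgIGF2BP2 cells (adjusted p = 0.0432) and in sgIGF2BP3 cells, and no other call among the 7 genes changed.

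The count over all genes moved by more than 1.5 times in 10 cases. With Dox in sgIGF2BP3 cells it was 302, but 162 and 151 without DMSO replicates 3 and 4, 172 and 108 without Dox replicates 2 and 4, and 477 with only those groups. Against sgAAVS1 it was 889, but 428 without sgIGF2BP3 Dox replicate 4, and 540 and 1415 without sgAAVS1 DMSO replicates 2 and 4. With only the groups compared it was 465 in place of 267 for siIGF2BP3, and 284 in place of 155 for the IGF2BP3 Dox effect minus the siRNA effect. Each of the 7 genes had at least 503 counts in each library.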
